A study of Bos taurus with 12 samples.

Results

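The genes described here are the glucocorticoid receptor NR3C1, its feedback chaperone FKBP5, the steroid-converting enzyme HSD11B1 and the mineralocorticoid receptor NR3C2, measured in the biceps brachii muscle of 12 bulls. They were found by matching the gene name, gene number, accession or description of each probe to the 4 symbols, which gave 5 probes of the 21475 on the array, 1 each for NR3C1, FKBP5 and HSD11B1 and 2 for NR3C2. FKBP5 was the member whose transcript differed most between groups. It was 8.45-fold lower in bulls fed dexamethasone alone than in untreated bulls, while bulls given dexamethasone with clenbuterol ranged from near the dexamethasone level to above every control. Neither receptor passed the test in any comparison, and HSD11B1 lay below every control in all 8 treated bulls without passing it.

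The glucocorticoid receptor is a ligand-activated transcription factor that waits in the cytosol in a complex with HSP90 and its co-chaperones, binds cortisol or a synthetic steroid such as dexamethasone, and moves into the nucleus. In many mammalian tissues it raises transcription of FKBP5, whose protein joins the HSP90 complex and lowers the affinity of the receptor for hormone, which closes a negative feedback loop. HSD11B1 regenerates active cortisol from inert cortisone inside the cell, and the mineralocorticoid receptor binds cortisol as well as aldosterone.

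Bulls of the combination group ate clenbuterol, a beta2-adrenergic agonist, over 28 days. The amount per head was 2 mg in the first week and 4 mg in the next, then 6 mg to the end, and 0.66 mg of dexamethasone per head was added for 21 days. The dexamethasone group received 0.75 mg per head for 42 days, and the control group nothing. All were males of 18 to 20 months, with 4 bulls per group chosen from 8 for RNA quality, and each array is 1 bull. The combination therefore differs from dexamethasone alone in steroid dose and duration as well as in clenbuterol, and how long before slaughter the last dose was given is not stated in these sources.

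Muscle RNA was labelled with 1 dye and hybridised to an Agilent bovine array. Levels are log2 of the processed spot signal relative to the 75th percentile of the same array, so a level of 0 is a signal at that percentile, and levels of different probes are not compared with each other. A change was tested with limma across 13674 genes and called at a Benjamini-Hochberg adjusted p under 0.05. By this rule 84 genes (0.614%) were called in the dexamethasone group against control, 6 (0.0439%) in the combination against control and 2 (0.0146%) in the combination against dexamethasone. An unadjusted p under 0.05 was found for 12.3%, 12.1% and 11% of all genes in the same order, the shares against which the counts of list members at that level are to be read. The 4 genes and every list were chosen with earlier results of these data known. Counts of members set beside these shares are therefore descriptions and no independent evidence. Between 53.2% and 68.7% of spots per array were well above background. The 7 arrays of scan day 2 (combination replicates 1 to 3, dexamethasone replicates 1 to 3 and control replicate 4) had negative-control signals of 67.3 to 92.5, against 30.8 to 43.7 on the other 5 arrays. The differences of the 4 genes are therefore also given within and outside that day. For other genes they are given only in some cases, so their absence does not mean that a difference held both within and outside scan day 2. Outside it, dexamethasone and the combination have 1 array each, and within it control has 1. The arrays outside it do not share a day: control replicates 1 to 3 were scanned on day 1, dexamethasone replicate 4 on day 3 and combination replicate 4 on day 4. A difference outside scan day 2 therefore compares groups scanned on different days and slides, where group and day cannot be told apart. The muscle fibre markers were bright on every array, ACTA1, skeletal actin, averaging 8.59 in the combination, 8.66 in the dexamethasone group and 8.62 in controls.

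**Figure D1:**
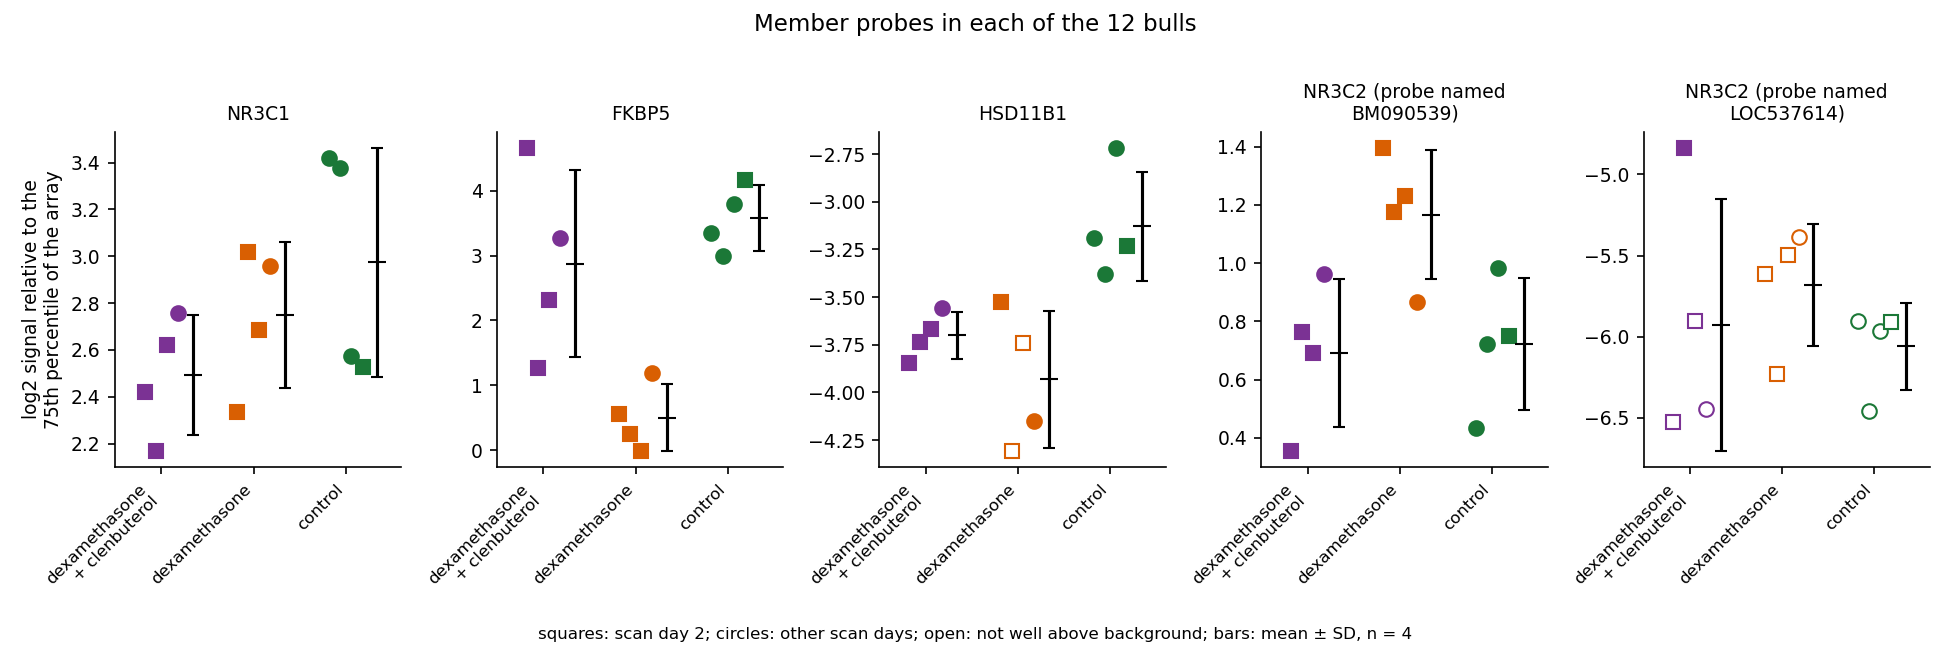
Log2 signal relative to the 75th percentile of the array for the 5 probes of the 4 genes in each of the 12 bulls, with the mean and SD of each group of 4 beside the points. FKBP5 points of the dexamethasone group (at most 1.19) lie below all controls (at least 2.99), and HSD11B1 points of both treated groups lie below all controls, while the groups overlap for NR3C1.

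NR3C1 lay above the 75th percentile on every array, and none of its differences was called. Its probe was well above background on all 12 arrays. NR3C1 stood at 2.42, 2.17, 2.62 and 2.76 in the combination bulls, at 2.34, 3.02, 2.68 and 2.96 in the dexamethasone bulls, and at 3.42, 3.38, 2.57 and 2.53 in controls. The controls split into a high pair, replicates 1 and 2, and a low pair, replicates 3 and 4, and each treated group overlapped them. Control replicates 1 to 3 share a slide and a scan day, so that split runs within 1 slide.

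Against control, the dexamethasone group differed by -0.225 ± 0.25 for NR3C1 (log2, SE, n = 4 per group), with a 95% interval of -0.77 to 0.32 and a limma adjusted p of 0.776. The same difference was 0.15 within scan day 2 and -0.16 outside it. In the combination the difference from control was -0.48 ± 0.25, with an interval of -1.03 to 0.06 and an adjusted p of 0.459, and it was -0.12 within scan day 2 and -0.37 outside it. The combination against dexamethasone gave -0.26 ± 0.25 (interval -0.80 to 0.29, adjusted p = 0.758), at -0.28 within scan day 2 and -0.20 outside it. The intervals reach a receptor transcript lower by 1.03 log2 units in the combination, and one higher by 0.32 in the dexamethasone group.

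NR3C2 has a bright probe, designed on the expressed sequence tag BM090539 that the description matches to human NR3C2, and a dim one designed on the predicted bovine gene LOC537614. The bright probe gave 0.35, 0.76, 0.69 and 0.96 in the combination, 1.40, 1.17, 1.23 and 0.87 in the dexamethasone group, and 0.43, 0.72, 0.98 and 0.75 in controls. Dexamethasone replicates 1 to 3 lay above all other bulls, and replicate 4 lay inside the control range. The difference of this probe was 0.445 ± 0.18 in the dexamethasone group against control (interval 0.05 to 0.84), with an unadjusted p of 0.0306 and a limma adjusted p of 0.341, so NR3C2 was not called. Two-sided exact permutation of the 4 against 4 values gave p = 0.0571. Within scan day 2, which holds the 3 high bulls and 1 control, the difference was 0.52, and outside it 0.15.

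The 4 combination bulls lay at 0.96 or below in NR3C2 and overlapped the controls. The combination against dexamethasone gave -0.475 ± 0.18 (interval -0.87 to -0.08, limma adjusted p = 0.370), at -0.67 within scan day 2 and 0.10 outside it. Against control it was -0.03 ± 0.18 (interval -0.43 to 0.37, adjusted p = 0.965), at -0.15 within that day and 0.25 outside it. The dim probe of NR3C2 was well above background on 1 array, combination replicate 2, at -4.83, and its other values ran from -6.53 to -5.38. It therefore neither repeats nor contradicts the bright probe, and no fold is given for it. Its 2 spots differed by up to 1.28 on 1 array, whereas those of the bright probe differed by at most 0.10.

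FKBP5 was well above background on every array and fell after dexamethasone alone. It was the only call among the 4 genes (1 of 4, beside 0.614% of all genes). Its probe gave 0.55, 0.25, -0.008 and 1.19 in the dexamethasone bulls, against 3.35, 2.99, 3.80 and 4.16 in controls. The highest dexamethasone bull lay 1.80 log2 units below the lowest control, and the groups averaged 0.50 ± 0.52 and 3.58 ± 0.51 (SD, n = 4 each). The change was -3.08 ± 0.58 (SE), or 8.45-fold, with a 95% interval of -4.34 to -1.82 and a limma adjusted p of 0.0391, the 64th smallest p among all genes. The exact permutation p was 0.0286, the smallest that 4 against 4 bulls can give. The difference was -3.90 within scan day 2, against control replicate 4 alone, and -2.19 outside it, where dexamethasone replicate 4 is alone.

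The call lies near the threshold. Removing any 1 of the 12 bulls left the change between -3.31 and -2.89, but the adjusted p passed 0.05 in 7 of those 12 fits (without any 1 of the 4 controls, dexamethasone replicate 2 or 3, or combination replicate 3). With scan day as a fixed term the change was -3.90, which is the difference within scan day 2, since each other day holds 1 group. That fit has control replicate 4 as its only control for the comparison, so it cannot decide whether the call holds. The pair of FKBP5 spots on an array differed by a median of 0.07 and at most 0.17, far less than the bulls of a group.

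Bulls given the combination were spread over most of the FKBP5 range of the study. Replicate 1 had 4.67, the highest of all 12 bulls, replicate 4 had 3.26 and replicate 3 had 2.31, while replicate 2 had 1.26, close to the highest dexamethasone bull. All 4 lay above all 4 dexamethasone bulls, with replicate 4 inside the control range, replicate 1 above it and replicates 2 and 3 below it. The smallest gap between these 2 groups was 0.07, between combination replicate 2 and dexamethasone replicate 4. That is about the median difference between the 2 spots of this probe on an array. The SD of the combination was 1.45, against 0.52 in the dexamethasone group and 0.51 in controls. The limma fit takes 1 shared spread for the 3 groups. Its SE for FKBP5 is therefore 0.58 in each comparison, and its intervals do not reflect the unequal SDs.

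The combination exceeded dexamethasone alone by 2.38 ± 0.58 for FKBP5, or 5.20-fold, with an interval of 1.11 to 3.64. The unadjusted p was 0.00146 and the limma adjusted p 0.174, so the difference was not called, and the exact permutation p was again 0.0286. It was 2.48 within scan day 2, where 3 bulls of each group can be compared, and 2.07 outside it. Against control the combination differed by -0.70 ± 0.58 (interval -1.96 to 0.57, limma adjusted p = 0.650), with -1.41 within scan day 2 and -0.12 outside it. Single bulls moved this value, to -1.30 without combination replicate 1 and -0.16 without combination replicate 2 (adjusted p = 0.339 and 0.935). The steroid dose and duration differ between the treated groups, so their part and that of clenbuterol cannot be told apart.

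**Figure D2:**
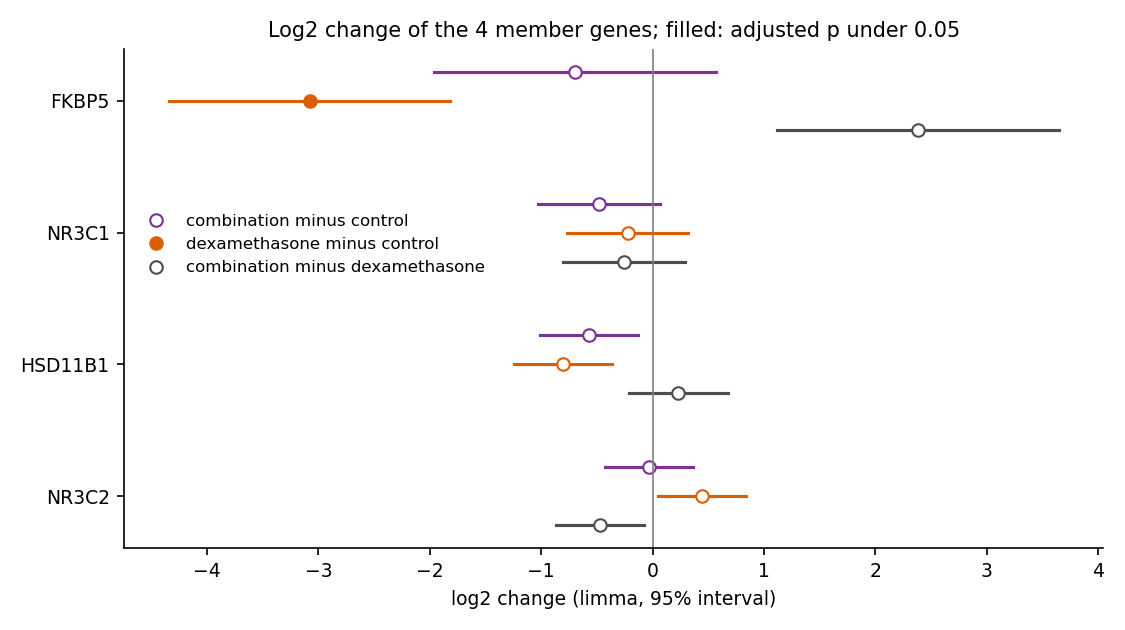
Log2 change of the 4 genes in the 3 comparisons with 95% intervals from limma, filled where the adjusted p was under 0.05. FKBP5 in the dexamethasone group against control (-3.08) is the only filled point, and the intervals of NR3C1 hold 0 in each comparison.

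HSD11B1 was dim and lower in every treated bull than in any control. It gave -3.85, -3.74, -3.67 and -3.56 in the combination, -3.53, -4.31, -3.74 and -4.15 in the dexamethasone group, and -3.19, -3.38, -2.71 and -3.23 in controls. Dexamethasone replicates 2 and 3 were not well above background for this probe, while the other 10 arrays were. The smallest gap between a treated bull and a control was 0.15, between dexamethasone replicate 1 and control replicate 2, which is about the median difference of 0.16 between the 2 spots of this probe on an array.

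The HSD11B1 difference of the dexamethasone group from control was -0.80 ± 0.20 (interval -1.24 to -0.36), or 1.74-fold, with an unadjusted p of 0.00183 and a limma adjusted p of 0.110. In the combination it was -0.57 ± 0.20 against control (interval -1.01 to -0.13), or 1.49-fold, with an adjusted p of 0.319. Neither was called, and each reached the smallest exact permutation p of 0.0286. Within scan day 2 the difference from control was -0.52 in the combination and -0.63 in the dexamethasone group, and outside it -0.46 and -1.05 in the same order. Both comparisons use the same 4 controls and are not independent of each other. The combination against dexamethasone gave 0.23 ± 0.20 (interval -0.21 to 0.67, limma adjusted p = 0.726), at 0.11 within scan day 2 and 0.59 outside it. With normexp background correction, the HSD11B1 difference from control was -0.31 in the combination and -0.44 in the dexamethasone group (adjusted p = 0.552 and 0.291). Without dexamethasone replicate 1 the HSD11B1 difference of the dexamethasone group from control was -0.94 with a limma adjusted p of 0.0395.

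Counted by groups that do not overlap, 2 of the 4 genes, FKBP5 and HSD11B1, were lower in every dexamethasone bull than in every control, where 3.93% of all genes were. In the combination against control 1 of the 4, HSD11B1, was lower without overlap, against 3.72% of all genes, and against dexamethasone 1 of the 4, FKBP5, was higher without overlap, against 2.53% of all genes. With 4 members these counts describe the genes and no more.

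Muscle samples also hold connective tissue and blood cells, whose markers are given beside HSD11B1. Of 12 measured fibroblast markers, which include COL1A1, a chain of type I collagen, and DCN, the matrix proteoglycan decorin, 12 were below 0 in the dexamethasone group against control, with a median of -1.19 beside a median of 0.03 over all genes, and 0 were called by limma (7 had an unadjusted p under 0.05, beside 12.3% of all genes). Their mean level per array, relative to the mean of all arrays, ran from -0.51 to 0.60 in the combination, from -1.44 to 0.56 in the dexamethasone group and from 0.35 to 0.79 in controls. In the combination against control 9 of the 12 were below 0, with a median of -0.515. Within scan day 2 the marker mean differed from control by -0.45 in the combination and -0.70 in the dexamethasone group, and outside it by -0.004 and -2.04. In 3 treated bulls the fibroblast mean lay inside the control range, at 0.40 in combination replicate 2, 0.60 in combination replicate 4 and 0.56 in dexamethasone replicate 1. Their HSD11B1 levels were -3.74, -3.56 and -3.53 in the same order. The part of these cells in the HSD11B1 difference was not tested, and in whole muscle fewer cells of a type and less RNA per cell cannot be told apart.

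**Figure D3:**
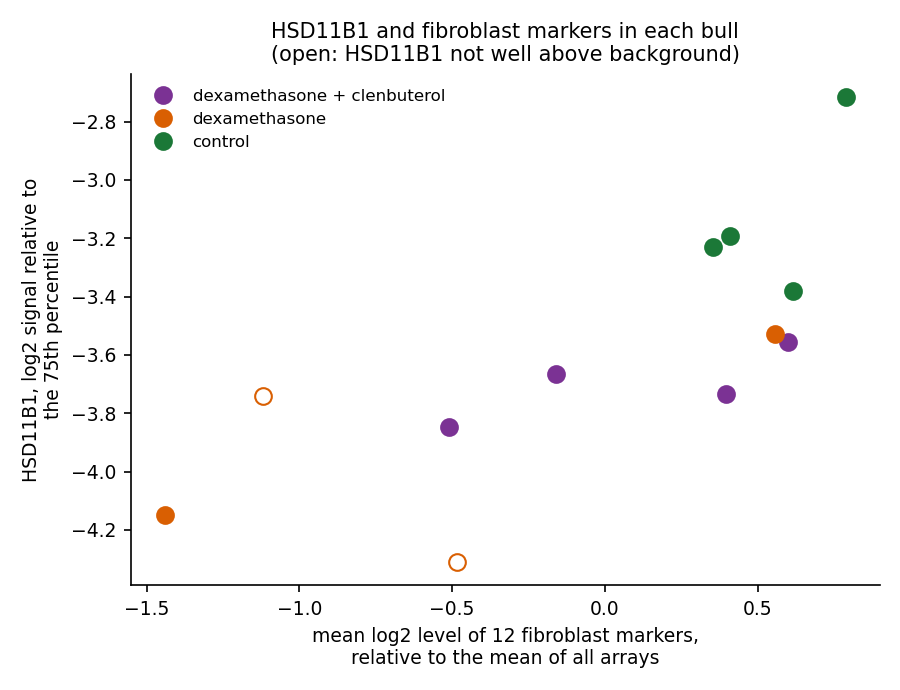
HSD11B1 level of each bull on the vertical axis (log2 relative to the 75th percentile, open where not well above background) against the mean log2 level of 12 fibroblast markers relative to all arrays. Combination replicates 2 and 4 and dexamethasone replicate 1 lie within the control range of the markers, with HSD11B1 between -3.74 and -3.53. The highest HSD11B1 value (-2.71) is in the control with the highest marker mean (0.79).

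Of 12 leukocyte markers measured, 8 were below 0 in the dexamethasone group against control, with a median of -0.74. The call rule picked 1 of the 12, where it picked 0.614% of the genes tested. That marker was CD3E, which belongs to the T cell receptor complex (-1.74 ± 0.31, limma adjusted p = 0.0312). An unadjusted limma p under 0.05 was found for 5 of the 12, beside 12.3% of all genes. In the combination against control 0 were called and 3 had an unadjusted p under 0.05, beside 12.1% of all genes. The leukocyte marker mean per array ran from -0.22 to 0.10 in the combination, from -1.06 to 0.80 in the dexamethasone group and from 0.28 to 0.68 in controls. Within scan day 2 this mean differed from control by -0.50 in the combination and -0.74 in the dexamethasone group, and outside it by -0.42 and -0.695. The part of these cells in the FKBP5 and HSD11B1 differences was not tested. Adipocytes are another site of HSD11B1. Of 12 adipocyte markers 8 were measured, with a median of -0.03 in the dexamethasone group against control and 0.10 in the combination against control, and ADIPOQ and LEP, the adipokine genes, were among the 4 below the detection filter. Dexamethasone replicate 2, the bull with the lowest HSD11B1 (not well above background there), had the highest adipocyte mean, at 1.36. Replicates 1, 3 and 4 of that group had -0.335, -0.273 and -0.397. Within scan day 2 the adipocyte mean differed from control by 0.17 in the combination and 0.52 in the dexamethasone group, and outside it by 0.21 and -0.40. The part of adipocytes in the HSD11B1 difference was not tested.

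Of the related enzymes, HSD11B2, which inactivates cortisol, was dim, being well above background on 3 of 4 combination arrays, 1 of 4 dexamethasone arrays and 3 of 4 control arrays. Its change was -0.05 ± 0.35 in the combination and -0.36 ± 0.35 in the dexamethasone group against control, with limma adjusted p of 0.972 and 0.738. The sign of both depended on the scan day, at 0.37 and -0.21 within scan day 2 and -0.33 and 0.17 outside it. HSD11B1L, a relative of HSD11B1 picked out after its values were seen, was measured on all 12 arrays and differed from control by 0.16 in the combination and 0.175 in the dexamethasone group, without a call. These were -0.51 and -0.06 within scan day 2 and 0.87 and -0.41 outside it. Of the 10 genes listed for glucocorticoid metabolism and transport, 5 were measured and 0 were called in any comparison (limma, with 0, 0 and 1 at an unadjusted p under 0.05 for the combination against control, dexamethasone against control and the combination against dexamethasone). SERPINA6, the corticosteroid-binding globulin, differed by 0.52 ± 0.25 in the combination and 0.41 ± 0.25 in the dexamethasone group (adjusted p = 0.438 and 0.555). Within scan day 2 these were -0.01 and -0.37, and outside it 0.24 and 0.86, so the sign turned. NNT, which supplies mitochondrial NADPH, differed by -0.25 ± 0.20 and 0.28 ± 0.20 in the same order, with adjusted p of 0.640 and 0.609. NNT gave 0.04 and 0.60 within scan day 2 and -0.54 and -0.11 outside it.

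The cytosolic complex that holds the receptor was read from 20 chaperones and co-chaperones, all measured. In the combination against control 18 of the 20 lay above 0, with a median of 0.57 beside 0.03 over all genes, and 1, DNAJA1, was called (beside 0.0439% of all genes). An unadjusted p under 0.05 was found for 12 of the 20, beside 12.1% of all genes. In the dexamethasone group 15 lay above 0, with a median of 0.28 and 0 called by limma (4 at an unadjusted p under 0.05, beside 12.3%). The combination against dexamethasone had 18 above 0, with a median of 0.37 and 0 called by limma (7 at an unadjusted p under 0.05, beside 11%). The mean of the list per array ran from 0.13 to 0.65 in the combination, from -0.15 to 0.10 in the dexamethasone group and from -0.48 to -0.19 in controls, so that the 3 groups did not overlap. The combination against control differed by 0.62 in that mean within scan day 2 and by 0.63 outside it.

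DNAJA1, an HSP40 co-chaperone that loads client proteins onto HSP70, stood at 2.67, 3.54, 3.57 and 2.92 in the combination, at 2.78, 2.12, 2.12 and 2.25 in the dexamethasone group and at 1.51, 1.58, 1.31 and 1.89 in controls. All 8 treated bulls lay above all controls, and the share of all genes that do so is not given here. DNAJA1 rose by 1.60 ± 0.24 in the combination against control (limma adjusted p = 0.0482), and differed by 0.74 ± 0.24 in the dexamethasone group (adjusted p = 0.216). On leaving out 1 bull at a time, 0 chaperones were called in 11 of 12 fits, the exception being the fit without dexamethasone replicate 1. STIP1, which bridges HSP70 and HSP90, differed by 1.13 ± 0.19 in the combination (adjusted p = 0.101), and HSPA1A, an inducible HSP70, by 1.88 ± 0.34 (adjusted p = 0.123). The other probes of HSPA1A gave 2.72 and 3.63, the second of them measured on 4 arrays. The HSPA1A difference of the combination from control was 1.05 within scan day 2 and 2.32 outside it.

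FKBP5 belongs to the FK506-binding proteins, peptidyl-prolyl isomerases, and none of its 12 measured relatives was called by limma in any comparison. FKBP4, which competes with FKBP5 for the HSP90 complex and favours nuclear transport of the receptor, stood at 5.13, 5.49, 5.48 and 4.98 in the combination, at 4.51, 4.92, 4.82 and 4.75 in the dexamethasone group, and at 4.36, 4.50, 4.36 and 4.65 in controls. All 4 combination bulls exceeded the other 8, and the share of all genes that do so is not given here. The FKBP4 change against control was 0.80 ± 0.16 (limma adjusted p = 0.142). In the dexamethasone group FKBP4 differed by 0.28 ± 0.16 (adjusted p = 0.525). FKBP9 and FKBP10, isomerases of the endoplasmic reticulum, differed by -0.69 ± 0.28 and -0.51 ± 0.24 in the dexamethasone group against control (adjusted p = 0.326 and 0.418). The median of the family against control was 0.07 in the combination and -0.02 in the dexamethasone group, with 2 and 1 members at an unadjusted p under 0.05. In the combination against dexamethasone the median was 0.20, with 8 of the 12 above 0 and 4 at an unadjusted p under 0.05, beside 11% of all genes.

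**Figure D4:**
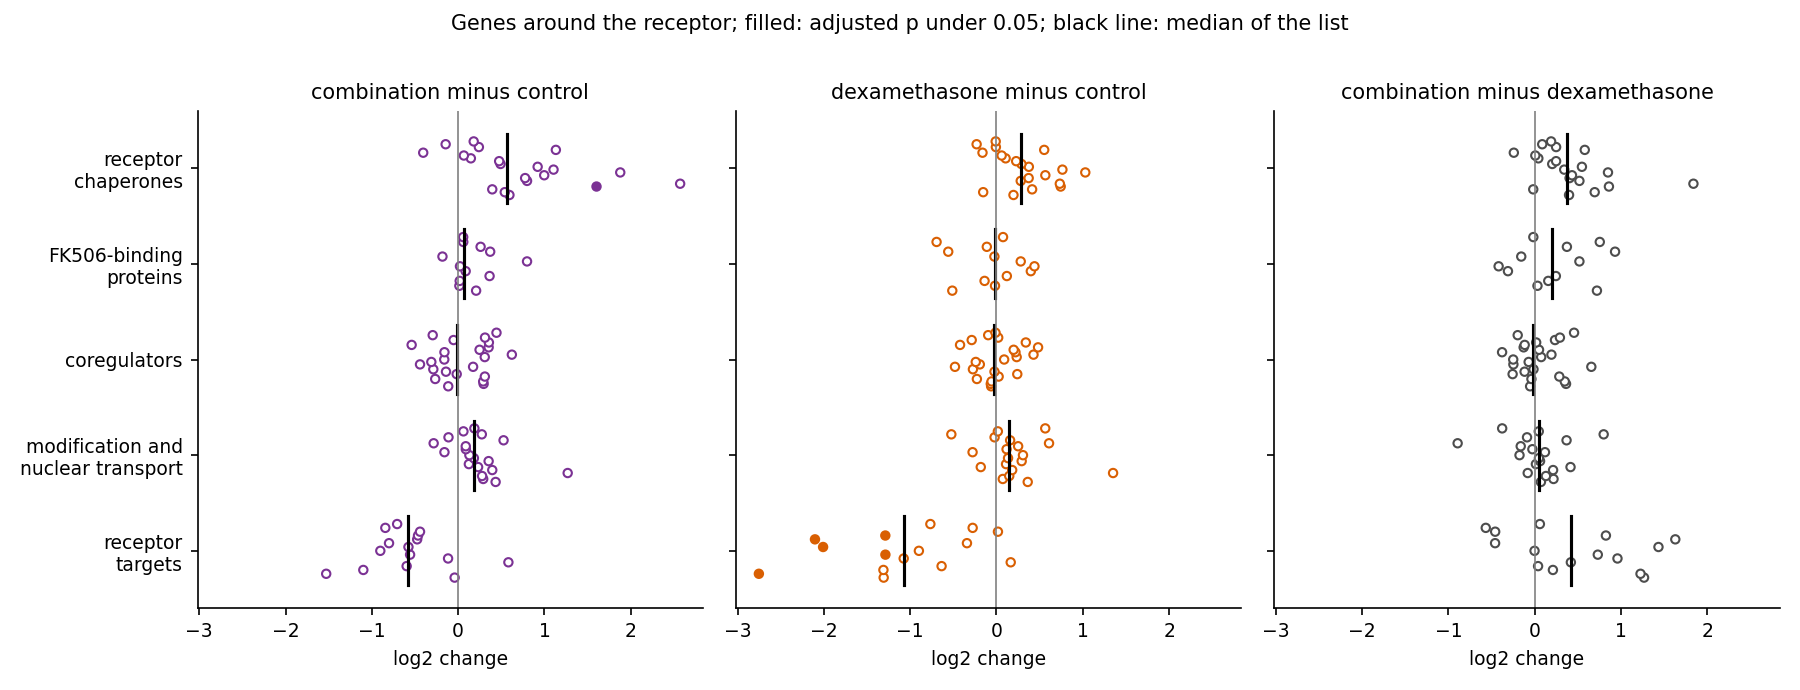
Log2 change of each measured gene of 5 lists around the receptor in the 3 comparisons, filled where the limma adjusted p was under 0.05, with the median of each list as a black line. Chaperones lie mostly above 0 in the combination against control (median 0.57), coregulators are centred near 0, and 5 receptor targets are filled in the dexamethasone group against control.

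Coregulators, the proteins that carry out transcription for the bound receptor, had medians near 0. Of 24 listed, 23 were measured, the medians were -0.02 in both treated groups against control and -0.02 in the combination against dexamethasone, and 0 were called by limma. Those at an unadjusted p under 0.05 were 4, 1 and 1, for the combination and dexamethasone against control and the combination against dexamethasone, beside 12.1%, 12.3% and 11% of all genes. The coactivator NCOA3 differed by 0.62 ± 0.21 in the combination and 0.43 ± 0.21 in the dexamethasone group (adjusted p = 0.287 and 0.429), the second of which was 0.38 within scan day 2 and -0.08 outside it. MED1, the Mediator subunit that contacts nuclear receptors, differed by -0.44 ± 0.15 in the combination (adjusted p = 0.314). Of 20 genes that modify the receptor or carry it to the nucleus, 19 were measured and 0 called (4, 3 and 3 at an unadjusted p under 0.05). DYNLL1, a dynein light chain, differed by 1.27 ± 0.41 in the combination and 1.35 ± 0.41 in the dexamethasone group (adjusted p = 0.277 and 0.191). The DYNLL1 difference from control in scan day 2 was 2.03 in the combination and 1.66 in the dexamethasone group, and on other days -0.08 and 1.34. PPP2CA, the catalytic subunit of protein phosphatase 2A, differed by 0.61 ± 0.19 in the dexamethasone group (adjusted p = 0.208) and by -0.89 ± 0.19 in the combination against dexamethasone (adjusted p = 0.154).

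Other steroid-type receptors gave 5 measured genes of 7 and 0 calls by limma (0, 2 and 1 at an unadjusted p under 0.05). ESRRA, an orphan receptor of mitochondrial gene programmes, differed by 0.68 ± 0.26 in the dexamethasone group (adjusted p = 0.313), and ESRRG by 2.41 ± 0.97 (adjusted p = 0.330). The ESRRA difference was 0.80 within scan day 2 and 0.22 outside it. For ESRRG the sign turned with the scan day, at 5.55 within scan day 2 and -0.75 outside it. Of 11 partners and targets of the mineralocorticoid receptor 8 were measured and 0 called (3, 1 and 1 at an unadjusted p under 0.05). ATP1B1, a beta subunit of the sodium pump, differed by -1.13 ± 0.41 in the combination against control and by -1.64 ± 0.41 against dexamethasone (adjusted p = 0.325 and 0.181). The first of these was -0.59 within scan day 2 and -1.81 outside it. The mean of these 8 genes differed from control within scan day 2 by -0.86 in the combination and -0.76 in the dexamethasone group, and outside it by 0.11 and 0.12, so the sign turned.

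Genes with a known glucocorticoid response element, FKBP5 left out, were the pathway list with calls in the dexamethasone group. Like the other lists, it was chosen with earlier results of these libraries known and so is no independent evidence of direction. Of 16 listed 15 were measured. Against control 13 lay below 0 in that group, 5 of them called (beside 0.614% of all genes), all lower, with a median of -1.08 beside 0.03 over all genes. In the combination 14 lay below 0, with a median of -0.58 and 0 called by limma (4 at an unadjusted p under 0.05). The combination against dexamethasone had 11 above 0, with a median of 0.42 and 0 called by limma (6 at an unadjusted p under 0.05, beside 11% of all genes). The mean of the list per array ran from -0.30 to 0.47 in the combination, from -0.82 to -0.19 in the dexamethasone group and from 0.32 to 0.71 in controls. The difference of the combination from control was -0.89 within scan day 2 and -0.03 outside it, and that of the dexamethasone group -1.32 and -0.68.

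The 5 called targets that fell after dexamethasone were CRISPLD2, a secreted protein, NFKBIA, the inhibitor of NF-kappa-B, KLF9, a zinc finger factor, PIK3R1, a regulatory subunit of phosphoinositide 3-kinase, and PER1, a clock gene. Their changes were -2.75, -2.01, -1.29, -1.29 and -2.10, with limma adjusted p from 0.00430 to 0.0427. PER1 differed by -2.76 within scan day 2 and -0.74 outside it, while CRISPLD2, NFKBIA, KLF9 and PIK3R1 lay between -2.74 and -1.06 on both sides. The second probe of CRISPLD2 gave -0.10, so its probes disagree, and the other 2 of PIK3R1 gave -1.14 and -0.76. Leaving out 1 bull left between 2 and 5 of these calls. With scan day as a fixed term the comparison rests on 1 control array, so that fit cannot decide whether they hold. KLF9 stood at 2.90, 2.35, 2.17 and 2.44 in the dexamethasone bulls, against 3.95, 3.52, 3.87 and 3.67 in controls, so these groups did not overlap. SGK1, a kinase that the glucocorticoid receptor induces in other tissues, is named after its values were seen and differed by 0.02 ± 0.30 (adjusted p = 0.991), at -0.91 within scan day 2 and 0.46 outside it.

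Among 11191 other genes with a symbol, the level of FKBP5 over the 12 bulls was most like that of KLF13, a zinc finger factor (Pearson r = 0.967, Spearman rho = 0.965), then GLCE (0.948), MOB3B (0.934), RASD1 (0.932) and NFKBIA (0.932). KLF13 stood at 3.01, 1.30, 1.75 and 2.04 in the combination, at 1.32, 0.45, 0.36 and 1.36 in the dexamethasone group and at 2.41, 2.24, 2.54 and 2.45 in controls. Combination replicate 1 was the highest of all 12 bulls in KLF13, as it was in FKBP5. These genes were picked for their likeness, so their r values carry no test, and all are high in the same groups.

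Once each group's mean was subtracted, which leaves the variation among bulls of a group, FKBP5 was most like ART3 (r = 0.943), MAX (0.902), KLF13 (0.896), FLJ43339 (0.889) and GLCE (0.865). KLF13 and GLCE were thus in both sets, but after the subtraction Spearman rho was 0.874 for KLF13 and only 0.552 for GLCE. GLCE, an enzyme of heparan sulfate synthesis, changed by -1.79 ± 0.31 in the dexamethasone group against control (limma adjusted p = 0.0266). Its levels were low, averaging -5.17 in that group and -3.37 in controls, and its detection per array is not given here. RASD1, a small GTPase, changed by -2.21 ± 0.24 in the same comparison (adjusted p = 0.00242). KLF13 differed by -1.54 ± 0.34 (adjusted p = 0.0759), and by -0.64 on its other probe. NFKBIA stood at 3.47, 1.98, 2.85 and 3.39 in the combination, so its lowest combination bull, replicate 2, was also the lowest combination bull in FKBP5.

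NR3C1 was most like ZNF304 (r = 0.923), SPPL3 (0.916), RNF6 (0.913), SIAH1 (0.892) and ADCY1 (0.872), and, after subtracting group means, ZNF304 (0.959), SOCS7 (0.908), SPPL3 (0.904), ADCY1 (0.902) and CACHD1 (0.899). None of these was called in any comparison. HSD11B1 was most like CD247, a chain of the T cell receptor complex (0.930), ADAMTSL3 (0.927), PTPN13 (0.909), LTBP4 (0.899) and MAN1C1 (0.897). Of these, ADAMTSL3 and PTPN13 were called lower in the dexamethasone group against control (-1.07 ± 0.20 and -1.12 ± 0.21, limma adjusted p = 0.0407 and 0.0391). ADAMTSL3 was low, averaging -4.03 in the dexamethasone group and -2.96 in controls, and its detection per array is not given here. After subtracting group means HSD11B1 was most like ADIPOR1, an adiponectin receptor (0.945), ECM2 (0.936), EVC2 (0.925), ALDOC (0.924) and CSDC2 (0.923). Among the genes most like the bright probe of NR3C2 were HIVEP1 (0.922), KIF21A (0.920), IMMP2L (0.915) and LYRM9 (0.892), and after subtracting group means it was most like KIF21A (0.930), LGALS3BP (0.919), HIVEP1 (0.918), PSMB9 (0.910) and LONP2 (0.909).

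Among the members themselves, 6 pairs were compared over the 12 bulls after subtracting group means, with exact permutation within groups. FKBP5 and NR3C1 gave values near 0 or below it (r = -0.05, exact p = 0.854, Spearman rho = -0.26, exact p = 0.425). HSD11B1 and NR3C2 gave the highest values, with r = 0.65 (exact p = 0.0310, adjusted over the 6 pairs 0.186) and rho = 0.72 (exact p = 0.00868, adjusted 0.0521). Without the 2 bulls farthest from the median in HSD11B1 r was 0.435, and the relation did not pass the adjustment. NR3C1 and HSD11B1 gave r = -0.56 (exact p = 0.111, adjusted 0.333) and rho = -0.50 (exact p = 0.194, adjusted 0.396).

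**Figure D5:**
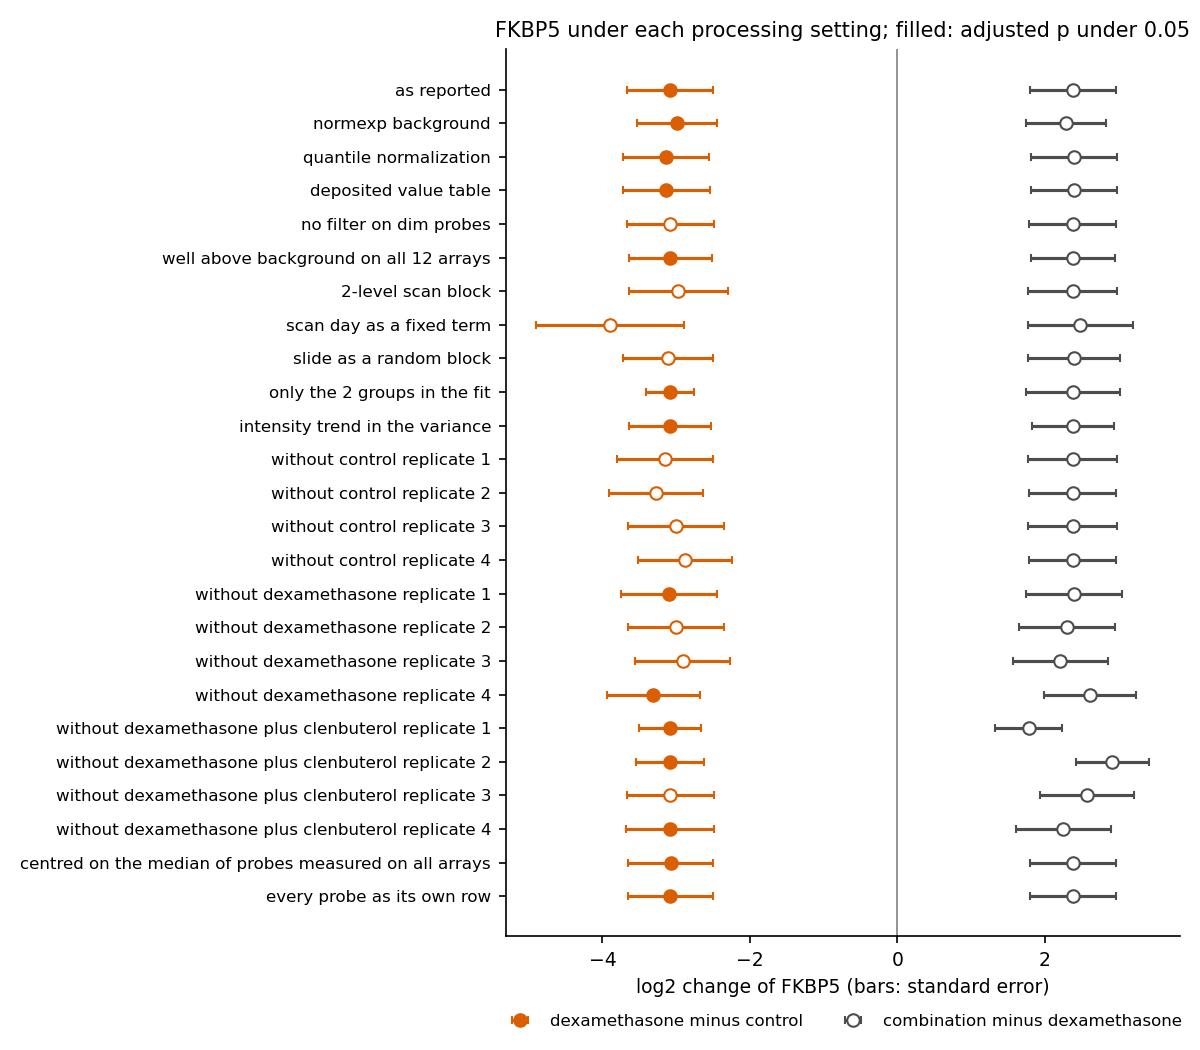
Log2 change of FKBP5 with its standard error under each processing setting, in the dexamethasone group against control and in the combination against dexamethasone, filled where the limma adjusted p was under 0.05. All values of the first lie between -3.90 and -2.89 and all of the second between 1.78 and 2.92, while only the first crosses the threshold, in 13 of its 24 alternative settings.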

How the data were processed

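The deposited scanner files hold spot intensity on a linear scale, made with Agilent Feature Extraction 9.5.1.1 per the file headers; probe names, flags and annotations in them are text or flag columns of the authors' files. The value table that the authors deposited also holds intensity on a linear scale; it ranks the spots of each array as the processed signal does (Spearman at least 0.9999955), has medians of 137.25 to 181.1667 and a shared maximum of 689500, and its making is not given here. It was used as an alternative.

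Log2 of the processed signal minus the 75th percentile of each array was taken, marked outlier spots (1 to 7 per array) were dropped, saturated spots (3 to 10) kept, and spots averaged per probe. A probe was kept when 4 or more of 12 arrays had it well above background (14703 probes), and the one with the highest mean stood for a gene (932 genes had several), leaving 13674 genes. Current symbols came from RefSeq genes (ARS-UCD2.0, with no coordinates taken) by gene number (10098 probes), accession (3413) or symbol (385); 3374 rest on the human match in the description and 4205 kept the file's name. No probe, promoter or protein sequence was used here, so the planned search of promoters for response elements was not run, and no genome position is given.

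Testing used limma 3.58.1 (R 4.3.3) on all 12 arrays with 3 group means, and p-values, all two-sided, were adjusted within each comparison. On 20 simulated data sets of the dexamethasone comparison with 13674 genes, 45.8% of genes changed by 1 log2 unit and 86.6% of those changed by 2 were recovered, with 7.7 false calls on average. The replicate numbers follow accession order and pair no samples. Slide and scan day come from the file headers; for dexamethasone replicate 4 the slide in the label's code is not the header's, and the header's was used. P-values measure the spread between arrays of 1 bull each, in which bull, slide and scan day are mixed. Precision is limited by how many arrays there are.

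The 4 genes and the gene lists were chosen with earlier results of these data known. Named genes are the members, the called members and 3 smallest p of each pathway list, the first markers of each cell type list, and the 5 genes most like each member before and after subtracting group means; genes outside this rule are named only as examples of a list. A few genes that this rule names are not reported here.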

Additional observations from a re-analysis of the deposited data

Results flagged for a closer look

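In groups of 4 bulls, 60 sets of values (the 5 probes and the 15 gene lists, in 3 groups each) were searched for 1 bull far from the other 3 by Dixon's ratio at its 95% critical value, which chance alone passes in about 1 in 20 sets. Of these, 4 stood apart. The dim NR3C2 probe gave -6.462 in control replicate 2 (ratio 0.894), where it was not well above background. The mean of the glucocorticoid metabolism and transport genes was -0.445 in dexamethasone replicate 1 (ratio 0.918). The adipocyte marker mean was 1.36 in dexamethasone replicate 2 (ratio 0.929), the bull with the lowest HSD11B1. The satellite cell marker mean was -0.452 in control replicate 3 (ratio 0.905). No value of the FKBP5, NR3C1, HSD11B1 or bright NR3C2 probe stood apart in its group by this ratio.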

How the results depend on the processing

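Each change of the 4 genes was recomputed under 23 or 24 alternatives. FKBP5 in the dexamethasone group against control (-3.08) kept its direction in all 24 and its call in 13. It lost the call with no filter (-3.079, limma adjusted p 0.0766), a block for scan day 2 (-2.969, 0.140) and slide as a random block (-3.112, 0.0511), the cause not being tested. Scan day as a fixed term gave -3.896, also without the call, in a fit with 1 control array on the only day that the groups share. Leaving out 1 bull gave -3.311 to -2.885. NR3C1 in that comparison was 0.1525 with scan day as a fixed term. HSD11B1 in it ran from -0.9375 (called without dexamethasone replicate 1) to -0.6647 on leaving out 1 bull, and was -0.4396 with normexp background (-0.3131 in the combination). NR3C1 in the dexamethasone group against control ran from -0.3737 to -0.07667, and FKBP5 in the combination against control from -1.296 to -0.1627, on leaving out 1 bull. NR3C2 in the combination against control ran from -0.126 to 0.08311, turning positive without control replicate 3 (0.05733) or combination replicate 1 (0.08311). No other change of the 4 genes changed its call or direction. Called genes over all tested, 84 in the dexamethasone group against control, were 25 with no filter, 13 with the scan-day 2 block and 24 to 261 on leaving out 1 bull. With scan day as a fixed term the comparisons with control rest on 1 control array, so no count is given for them. In the combination against control, 6 became 3 with quantile normalization or only 2 groups in the fit. They became 0 with no filter, with probes well above background on all arrays, and with the scan-day 2 block or the slide term. Leaving out 1 bull gave 0 to 11. Against dexamethasone, 2 became 1 with normexp or probes well above background on all arrays, 0 with quantile normalization, no filter, any scan or slide term or only 2 groups, and 0 to 74 on leaving out 1 bull. Of 1020 recomputed list medians 1002 moved by less than the spread between arrays within groups. The counts of called list members were less stable. Of 46 recomputed counts, for receptor targets in the dexamethasone group and chaperones in the combination against control, only 12 stayed near the count reported. Centring on the median of probes measured on all arrays, and the counts of called list members by setting, were added after seeing the data. No paired analysis was possible because the replicate numbers follow accession order. HSD11B1 has no value with the filter on all arrays.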
